A study of Mus musculus with 24 samples.

Results

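The genes followed here belong to the NRF2 antioxidant response. They are 10 genes chosen by name: Nfe2l2, Keap1, Gclc, Gclm, Slc7a11, Gsr, Txnrd1, Srxn1, Prdx1 and Nqo1. All 10 were among the 29742 gene names on the array, on 12 of its 39429 probes, and 9 of them were bright enough to be tested among 17805 genes. Blood RNA was measured in male C57BL/6J mice aged 2 months (young) or 21 months (old), 24 h after a whole-body dose of 4 Gy of x-rays or sham handling (0 Gy). There were 6 mice in each of the 4 groups and each mouse had its own one-colour Agilent array. C57BL/6J is an inbred laboratory strain, and the labels name no engineered allele in any group. Blood was drawn from the heart, so it holds all circulating cells, and globin RNA of red cells was depleted before labelling. A value below is the log2 signal of a probe minus the median log2 signal of its array, and a gene was called where limma's two-sided test passed 2 thresholds, 0.005 for its p and 0.05 for that p after Benjamini-Hochberg adjustment over all genes tested.

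NRF2, the product of Nfe2l2, is a transcription factor that is held at a low level by KEAP1, an adaptor that hands it to a ubiquitin ligase. When oxidants or electrophiles modify KEAP1, NRF2 accumulates, pairs with a small MAF protein and binds antioxidant response elements beside genes for glutathione synthesis, thioredoxin recycling and quinone reduction. Because NRF2 is set mainly through its protein, the mRNA of its target genes is commonly read as a sign of its activity, although each target also answers to other factors.

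Several properties of the arrays bear on these genes. Cdkn1a, the p53 target used as a check of exposure, lay between -0.53 and 1.16 in unirradiated young mice and between 4.23 and 5.72 in irradiated young mice. In old mice it lay between 0.64 and 1.85 without and between 4.31 and 5.54 with radiation, so the groups did not overlap at either age and no label went against it. Markers of B cells had a median level of 5.77 in unirradiated and 3.20 in irradiated young mice, and of 6.38 and 2.53 in old mice. T cell markers had median levels of 6.47 and 4.67 in young and of 6.14 and 5.84 in old mice. Neutrophil markers were at 4.29 and 5.20 in young and at 5.68 and 6.34 in old mice, and monocyte markers at 4.79 and 5.54 and at 6.19 and 5.56. The part of these shifts in the differences of the NRF2 genes was not tested. In whole blood, fewer cells of a type and less RNA per cell cannot be told apart. Markers of hepatocytes, which are not blood cells, had a mean level over 5 on 7 arrays, between 6.31 and 10.2: unirradiated young replicate 5, irradiated young replicates 2, 4 and 5, and irradiated old replicates 2, 3 and 5. On the other arrays they lay between -1.01 and 3.80, and 7 of the 12 hepatocyte markers, Alb among them, were not well above background on any array of unirradiated old mice. Irradiated old replicates 4 and 6 stood apart in another way. The spread of their gene differences was 0.26 from each other and 1.46 to 1.68 from the other irradiated old mice, their erythroid marker levels were 8.89 and 9.03 against 5.49 to 7.90 on all other arrays, and their monocyte marker levels were 2.94 and 3.08 against 4.51 to 6.41. These arrays were kept. Values without them are given beside results of the NRF2 genes that they change and for totals of the redox lists described below. For single genes of those lists they are not given. Each slide and each scan day held mice of 1 age, so these and age cannot be told apart. P-values measure the spread between mice.

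Of the probes, those of Keap1 and Gclm are shown because they read coding sequence across an exon junction: in mm9 the 60 bases of the Keap1 probe cover 441 bases, chr9:21035292-21035732 on the minus strand, and those of the Gclm probe 2636 bases, chr3:121962174-121964809 on the plus strand.
Keap1 probe: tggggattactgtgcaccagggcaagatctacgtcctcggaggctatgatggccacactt
Gclm probe: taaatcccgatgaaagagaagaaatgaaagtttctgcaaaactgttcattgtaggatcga

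The antioxidant response element was searched as TGACNNNGC or TGAGNNNGC on both strands of the 300 bases around each RefSeq start site, 250 before it and 50 after it (GRCm38.p6). The spellings differ in 1 base, so a match to one is never a match to the other. Promoters were given for 8 of the 10 genes, 10 promoters in all. Either spelling was found for 6 of these genes: Nfe2l2, Gclm, Txnrd1, Srxn1, Slc7a11 and Prdx1. Counted by promoter it was on 6 of the 10, since not every Txnrd1 promoter held it. Of all 32851 promoters of that length, 27.8% held either spelling, 12.4% TGACNNNGC and 17.6% TGAGNNNGC. No match was found in the windows of Keap1 and Nqo1. Srxn1 is shown because its mRNA had the largest response to radiation of the 9 tested genes at both ages, and it held the most matches, 3, of which the first base of one lay 28 bases after the start site and is not shown. Prdx1 and Gclm are shown as target genes that held TGACNNNGC and did not pass the test after radiation. Nfe2l2, the gene of the factor itself, also met both conditions and is not shown. Prdx1 held a second match, TGAGAACGC, whose first base lay 15 bases after the start site and is not shown. The 250 bases before each start site follow on the plus strand, which is the strand of all 3 genes, at chr2:152105274-152105523, chr4:116685349-116685598 and chr3:122245307-122245556, with the matched bases of either strand in capitals.
Srxn1 promoter: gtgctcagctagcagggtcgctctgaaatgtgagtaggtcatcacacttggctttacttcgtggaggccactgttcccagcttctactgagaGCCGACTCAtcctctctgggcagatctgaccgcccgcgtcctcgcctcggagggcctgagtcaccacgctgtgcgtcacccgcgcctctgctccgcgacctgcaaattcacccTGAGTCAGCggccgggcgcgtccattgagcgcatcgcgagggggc
Prdx1 promoter: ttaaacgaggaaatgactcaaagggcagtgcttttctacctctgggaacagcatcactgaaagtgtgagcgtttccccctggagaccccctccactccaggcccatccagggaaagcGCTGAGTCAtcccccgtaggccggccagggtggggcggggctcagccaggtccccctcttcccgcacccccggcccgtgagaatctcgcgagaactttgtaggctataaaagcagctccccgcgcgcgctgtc
Gclm promoter: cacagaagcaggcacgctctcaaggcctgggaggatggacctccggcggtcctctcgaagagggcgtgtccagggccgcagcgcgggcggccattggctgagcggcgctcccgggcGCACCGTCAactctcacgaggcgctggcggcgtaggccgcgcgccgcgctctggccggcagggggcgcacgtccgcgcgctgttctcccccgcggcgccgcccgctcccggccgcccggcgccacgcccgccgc
A match is a description of the letters, not of binding, which was not measured.

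**Figure D1:**
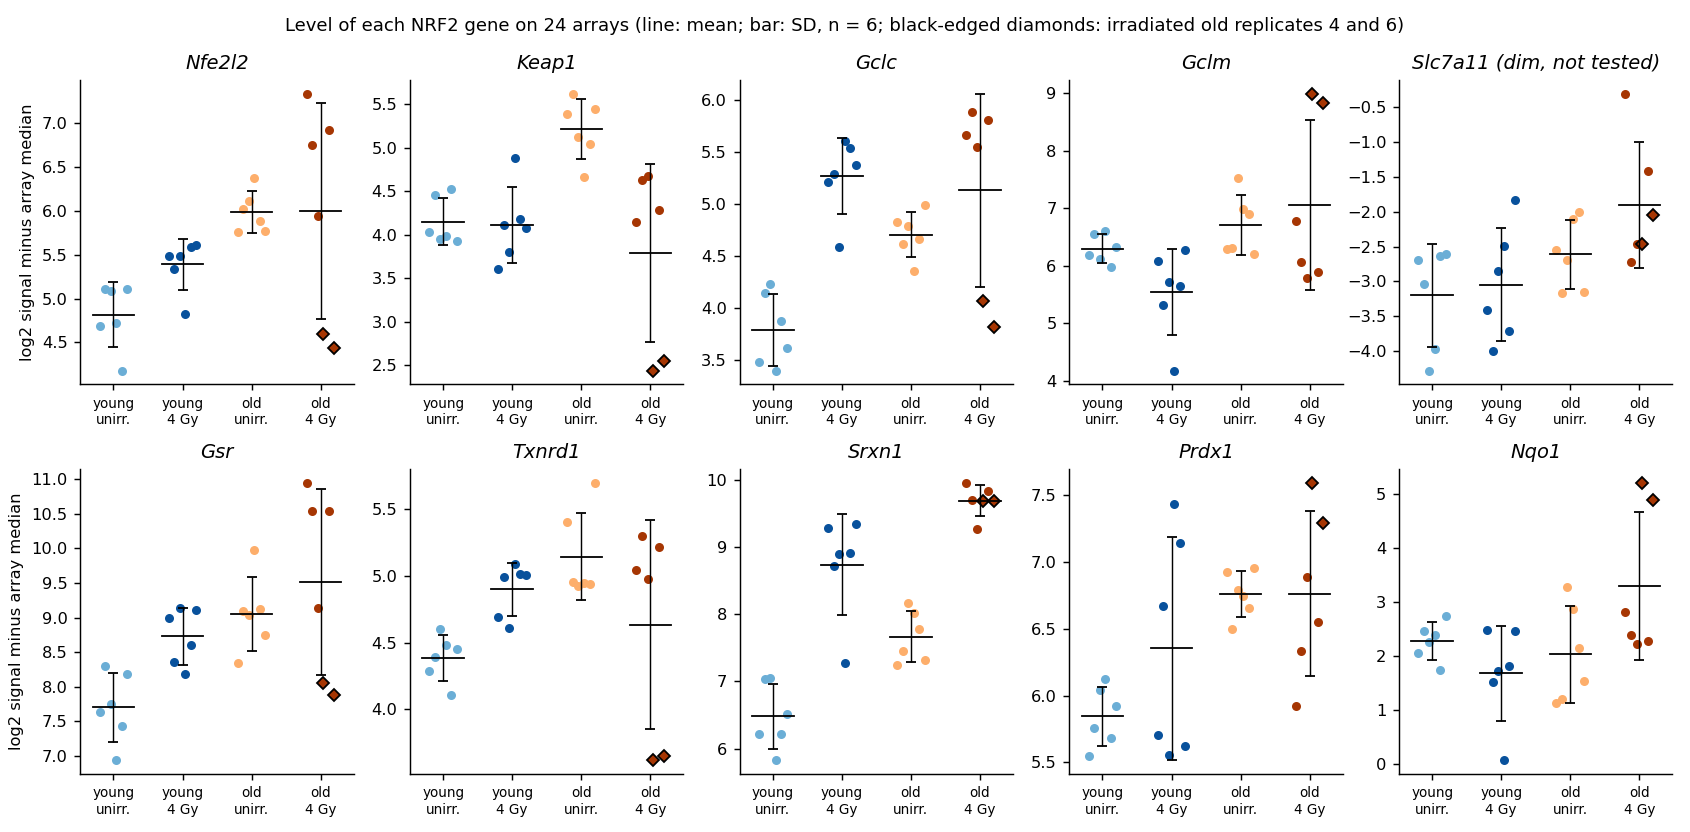
Log2 signal minus array median (y axis) of each of the 10 genes on the 24 arrays, with the 4 groups on the x axis; points are mice, lines are means and bars are SDs (n = 6). Srxn1 lay between 5.83 and 7.05 in unirradiated and between 7.28 and 9.34 in irradiated young mice, and between 7.24 and 8.17 and between 9.26 and 9.95 in old mice, and the black-edged diamonds mark the irradiated old replicates 4 and 6 that stood apart.

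The first comparison asked how the genes stood 24 h after radiation in young mice. Srxn1, Gclc, Gsr and Txnrd1 rose, by 4.79-fold, 2.78-fold, 2.04-fold and 1.43-fold, and none of the 9 tested genes was called lower. These genes encode enzymes that repair peroxiredoxins (Srxn1), make glutathione (Gclc), or recycle glutathione (Gsr) and thioredoxin (Txnrd1). The 4 called genes are 44.4% of the 9, all higher, where 35.4% of all genes tested were called, 14.3% higher and 21.1% lower. The median difference of the 9 genes was 0.51 and that of all genes -0.20.

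The sensor and the factor come first. Nfe2l2 itself lay between 4.18 and 5.11 (median 4.90) in unirradiated and between 4.83 and 5.62 (median 5.49) in irradiated young mice. The groups overlapped, with 1 irradiated mouse, replicate 4, as low as the unirradiated mice. Its difference of 0.58 (SE 0.20) had a limma adjusted p of 0.0282 and was not called, since its unadjusted p of 0.0116 missed the threshold. Without irradiated young replicate 4 the difference was 0.69 and was called, as it was with the slide as a random block, at 0.53 (adjusted p = 0.00492). With arrays scaled to the median of probes well above background on all arrays it was also called, at 0.62 (adjusted p = 0.0102). Keap1, the brake on NRF2, lay between 3.93 and 4.53 (median 4.00) without and between 3.60 and 4.88 (median 4.09) with radiation. The irradiated mice spread to both sides of the unirradiated ones, and the difference was -0.04 (SE 0.21, adjusted p = 0.905).

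Glutathione synthesis depends on glutamate-cysteine ligase, whose catalytic subunit is Gclc and whose modifier subunit is Gclm. Gclc lay between 3.40 and 4.23 (median 3.74) in unirradiated and between 4.59 and 5.61 (median 5.33) in irradiated young mice. Every irradiated mouse was above every unirradiated mouse. Gclc rose by 1.48 on the log2 scale (SE 0.21, adjusted p = 0.000127), a larger difference than that of 92.3% of all genes. Gclm lay between 5.98 and 6.61 (median 6.26) without and between 4.18 and 6.27 (median 5.68) with radiation. Irradiated replicates 2 to 5 were below all unirradiated mice, replicates 1 and 6 were within their range, and the difference of -0.76 (SE 0.30) was not called (adjusted p = 0.0528). With the slide as a random block Gclm was called lower, at -0.84 (adjusted p = 0.00286), and without the arrays high in hepatocyte markers it was at -0.34. The subunits of this enzyme thus had differences of opposite sign, of which that of Gclc was called and that of Gclm was called only with the slide as a random block.

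Gsr, glutathione reductase, returns oxidised glutathione to its reduced form. Its brighter probe lay between 6.94 and 8.30 (median 7.68) in unirradiated and between 8.18 and 9.14 (median 8.80) in irradiated young mice. The groups overlapped only at their edges. Gsr rose by 1.03 (SE 0.25, adjusted p = 0.00512), and its second probe, fitted as an item of its own, gave 1.12 (adjusted p = 0.0033). Slc7a11, the cystine transporter that supplies cysteine for glutathione, was too dim to test. Its probe was not well above background on any array of 3 groups and was so on 2 of 6 arrays of irradiated old mice, so no difference is given.

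In the thioredoxin system, Txnrd1 is the cytosolic thioredoxin reductase, Prdx1 a peroxiredoxin that removes hydrogen peroxide, and Srxn1 the sulfiredoxin that repairs overoxidised peroxiredoxins. Srxn1 lay between 5.83 and 7.05 (median 6.37) in unirradiated and between 7.28 and 9.34 (median 8.90) in irradiated young mice. The groups did not overlap, and replicate 4 was the lowest irradiated mouse, well below the next. Srxn1 rose by 2.26 (SE 0.34, adjusted p = 0.000193), above 97.7% of all genes. Txnrd1 lay between 4.11 and 4.60 (median 4.42) without and between 4.61 and 5.09 (median 4.998) with radiation. The ranges met without overlap. Txnrd1 rose by 0.51 (SE 0.14, adjusted p = 0.00848), above 77.7% of all genes. Gclc, Srxn1 and Txnrd1 were thus 3 of 9 genes without overlap (33.3%), all higher, where 24.6% of all genes had no overlap in either direction and 9.46% none and were higher.

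Prdx1 lay between 5.55 and 6.13 (median 5.84) in unirradiated and between 5.55 and 7.43 (median 6.19) in irradiated young mice. The irradiated mice fell into a higher and a lower set. Replicates 2, 4 and 5, the ones with high hepatocyte markers, had 6.67, 7.43 and 7.14, and replicates 1, 3 and 6 had 5.70, 5.55 and 5.62. The difference of 0.51 (SE 0.33) was not called (adjusted p = 0.223), and without the arrays high in hepatocyte markers it was -0.25. Nqo1, a quinone reductase that is a common readout of NRF2, lay between 1.75 and 2.75 (median 2.32) without and between 0.08 and 2.48 (median 1.77) with radiation. The irradiated mice were more spread and reached lower, and the difference of -0.60 (SE 0.35) was not called (adjusted p = 0.184). Without the arrays high in hepatocyte markers it was -0.16.

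Leaving out the arrays high in hepatocyte markers kept 3 of the 4 calls in young mice. Gclc was then 1.28, Srxn1 2.64 and Gsr 1.32 higher, and Txnrd1 0.33 higher with an adjusted p of 0.103. The part of hepatocyte RNA in the Txnrd1 difference was not tested. The Txnrd1 call was also lost in 6 of the 12 fits without 1 mouse, namely unirradiated replicates 1, 2 and 5 and irradiated replicates 2, 5 and 6, with differences from 0.46 to 0.57 over all 12. One slide held 2 unirradiated and 2 irradiated young mice, and within it Gclc (1.5) and Srxn1 (2.63) were called while Gsr (0.87) and Txnrd1 (0.56) were not. The same 2 genes were the ones called in 1 fit of all 24 arrays, which shares the spread of the 4 groups.

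**Figure D2:**
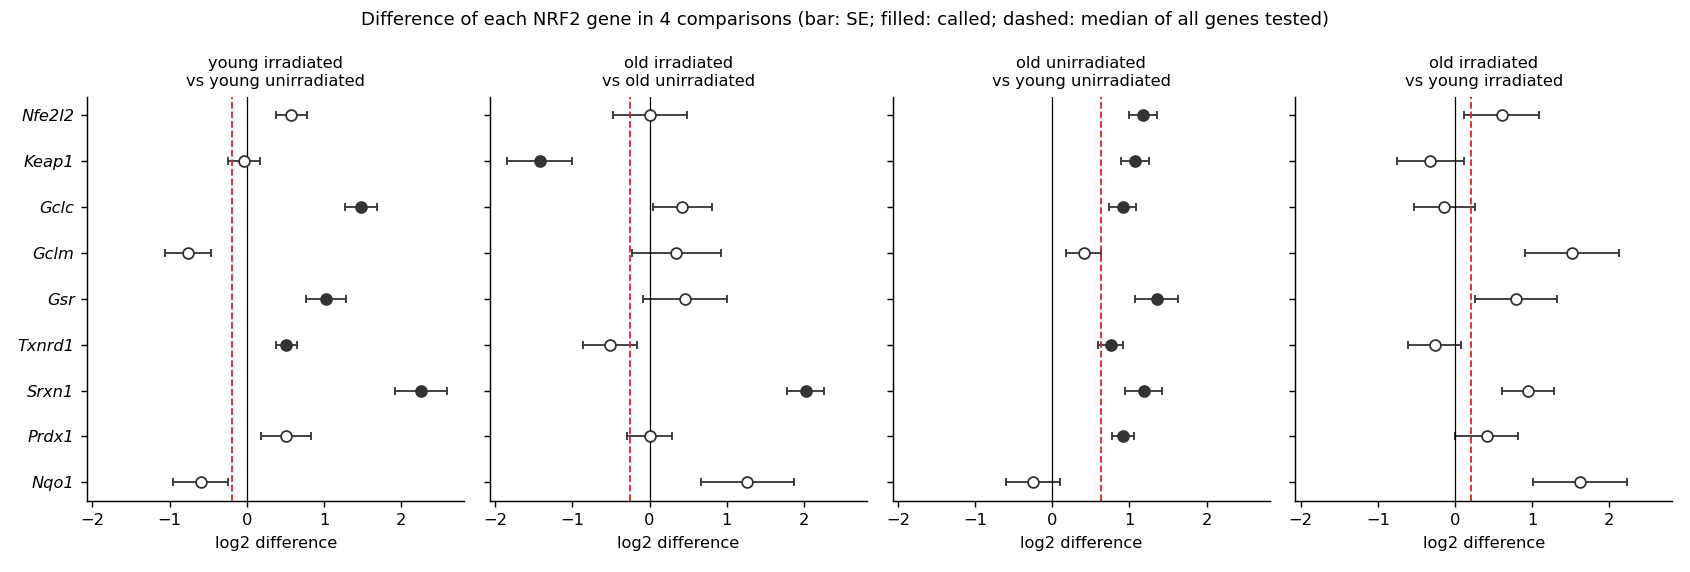
Log2 difference (x axis) of the 9 tested genes (y axis) in 4 comparisons, 1 per panel; bars are SEs, filled points passed both thresholds and the dashed line is the median of all genes tested. Srxn1 was 2.26 higher after radiation in young and 2.02 higher in old mice, and 7 genes were called higher in unirradiated old against young mice, where the median of all genes was itself 0.63.

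In old mice the comparison of irradiated with unirradiated animals called 2 of the 9 genes, 22.2%, where 24.9% of all genes were called, 7.49% higher and 17.4% lower. Srxn1 rose 4.06-fold and Keap1 fell 2.69-fold. The other 7 genes did not pass the test, and the median difference of the 9 genes was 0.35 against -0.26 for all genes. Scaling to the 75th percentile moved the share of higher genes among all genes called from 30.1% to 48%, and scaling to the median of probes well above background on all arrays moved it to 53.5%, and in the authors' table it was 52%. Srxn1 (2.02 in the main scaling) stayed called in these, and Keap1 lost its call.

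Srxn1 lay between 7.24 and 8.17 (median 7.62) in unirradiated and between 9.26 and 9.95 (median 9.69) in irradiated old mice. All irradiated mice were above all unirradiated mice, and no other gene of the 9 had groups without overlap (11.1%), where 22.5% of all genes had none, 5.82% with irradiated mice higher. Srxn1 rose by 2.02 (SE 0.24, adjusted p = 0.000251), above 97.5% of all genes. Its spread in irradiated old mice was also the smallest of the 9 genes, with an SD of 0.23 where the median SD of all genes in that group was 0.86.

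Keap1 lay between 4.66 and 5.62 (median 5.25) in unirradiated and between 2.44 and 4.68 (median 4.22) in irradiated old mice. The ranges just overlapped, and replicates 4 and 6 were far below the other irradiated mice. Keap1 fell by 1.42 (SE 0.42, adjusted p = 0.0193). Without replicates 4 and 6 it fell by 0.78 and was still called (adjusted p = 0.0118), and within the slide that held both groups the difference was -0.85 and was not called. The Keap1 call was also lost in 8 of the 12 fits that left out 1 mouse, those without unirradiated replicate 1, 2, 3, 5 or 6 or irradiated replicate 1, 4 or 6, and the difference ran from -1.60 to -1.15 over all 12.

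Most of the other genes had wide ranges in irradiated old mice, in which replicates 4 and 6 lay away from replicates 1, 2, 3 and 5. Gclm was 8.99 and 8.82 on replicates 4 and 6 and 5.78 to 6.77 on the others. Nqo1 was 5.20 and 4.89 on replicates 4 and 6 and 2.22 to 2.81 on the others. Prdx1 was 7.59 and 7.29 there and 5.92 to 6.89 on the others. These 3 genes were higher on the pair with high erythroid markers. Nfe2l2 was 4.59 and 4.44 on replicates 4 and 6 and 5.94 to 7.34 on the others. Gclc was 4.06 and 3.82 there and 5.55 to 5.88 on the others. Txnrd1 was 3.62 and 3.65 there and 4.98 to 5.30 on the others. Gsr, at 8.05 and 7.88 against 9.13 to 10.9, was lower on the pair too, as was Keap1. Srxn1 alone of the 9 did not separate them, with 9.68 on both replicates and 9.26 to 9.95 on the others. These values are a description of mice that were set apart after their arrays had been seen, and the part of red cell RNA in them was not tested.

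**Figure D3:**
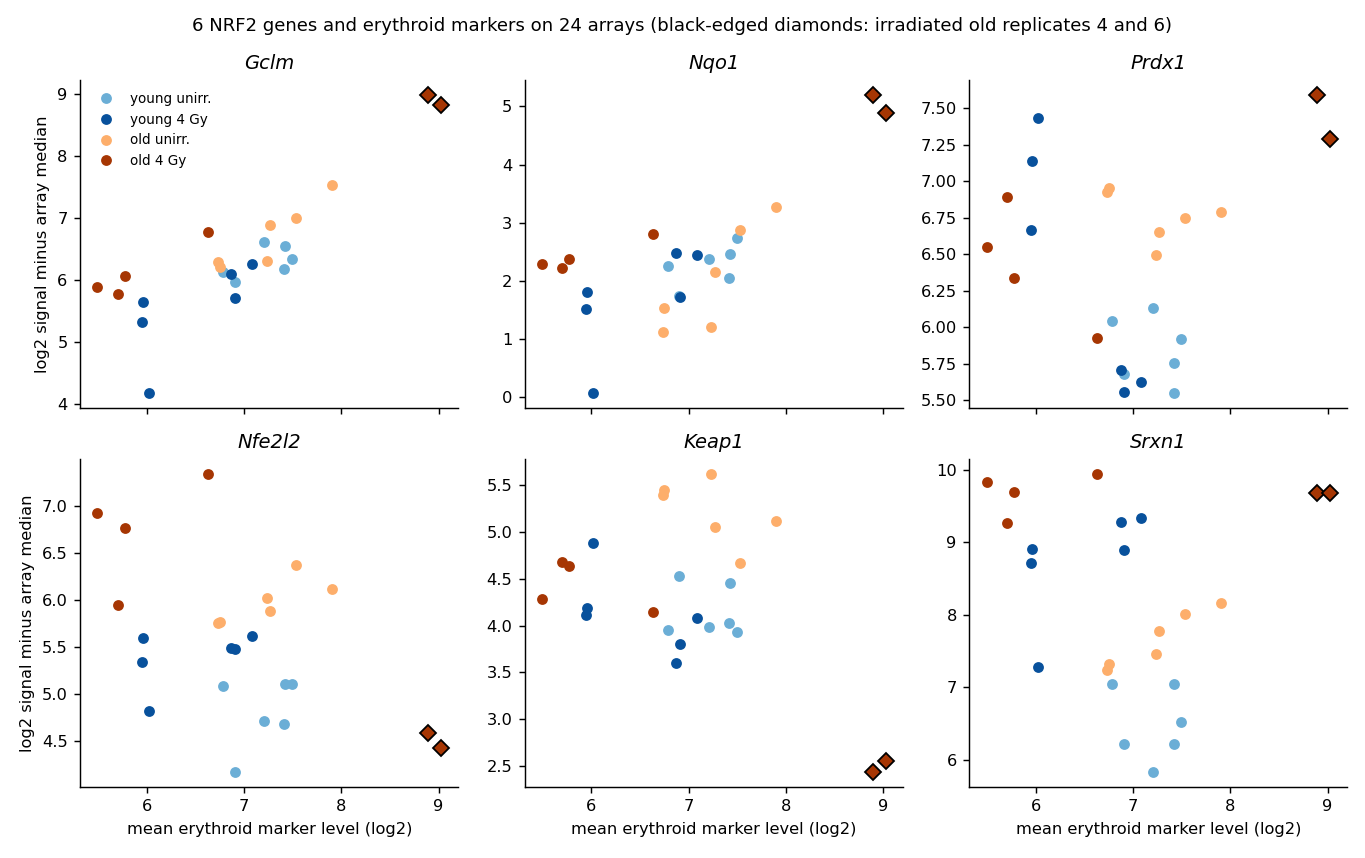
Log2 signal minus array median (y axis) of 6 genes against the mean level of the erythroid markers (x axis, log2) on 24 arrays, coloured by group. The irradiated old replicates 4 and 6, at erythroid levels of 8.89 and 9.03, stood to the right of all other arrays, at 5.49 to 7.90, with Gclm and Nqo1 high and Nfe2l2 low on them.

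Without replicates 4 and 6, 3 of the 9 genes were called in old mice, where 11.7% of all genes were called higher and 22.7% lower. Gclc was then 1.02 higher (SE 0.17, adjusted p = 0.000867) and Srxn1 2.02 higher (adjusted p = 0.000154), with Keap1 lower as above. With all 6 irradiated old mice Gclc had lain between 4.35 and 4.98 (median 4.72) without and between 3.82 and 5.88 (median 5.60) with radiation, a difference of 0.42 (SE 0.38, adjusted p = 0.404). Of the other genes, Nfe2l2 moved from 0.01 to 0.75 (adjusted p = 0.0298), Gsr from 0.46 to 1.24 (adjusted p = 0.0185) and Txnrd1 from -0.51 to -0.01. Gclm moved from 0.35 to -0.58 and Prdx1 from 0.00 to -0.34, and none of these 5 was called. Nqo1, between 1.13 and 3.27 (median 1.85) without and between 2.22 and 5.20 (median 2.59) with radiation, had a difference of 1.27 (SE 0.60, adjusted p = 0.12). Without replicates 4 and 6 it was 0.39 (adjusted p = 0.456). Without the arrays high in hepatocyte markers, which leaves irradiated old replicates 1, 4 and 6, Nqo1 was 2.27 higher and called (adjusted p = 0.0101). That set holds both of the replicates that stood apart.

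Nfe2l2 lay between 5.76 and 6.37 (median 5.95) in unirradiated and between 4.44 and 7.34 (median 6.35) in irradiated old mice. The irradiated mice lay on both sides of the unirradiated ones and the means were 5.99 and 6.00, a difference of 0.01 (SE 0.48). Leaving out both the arrays high in hepatocyte markers and replicates 4 and 6 leaves 1 irradiated old mouse, so only sizes are given. Against the unirradiated old mice, Nfe2l2 was then 1.35, Gsr 1.90, Srxn1 2.29, Gclc 0.96, Nqo1 0.78 and Gclm 0.07 higher. Keap1 was at -1.07, Prdx1 at -0.84 and Txnrd1 at -0.10. Gsr lay between 8.35 and 9.98 (median 9.06) without and between 7.88 and 10.9 (median 9.83) with radiation, a difference of 0.46 (SE 0.54, adjusted p = 0.525). Txnrd1 lay between 4.93 and 5.70 (median 4.95) without and between 3.62 and 5.30 (median 5.01) with radiation, a difference of -0.51 (SE 0.35, adjusted p = 0.275). In both genes the groups overlapped widely.

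The comparison of unirradiated old with unirradiated young mice asked how the genes stood with age alone. With arrays scaled to their median, 7 of the 9 genes were higher in old mice (77.8%): Nfe2l2, Keap1, Gclc, Gsr, Txnrd1, Srxn1 and Prdx1. Of all genes 63.9% were called, 48.5% higher and 15.4% lower, and the median of all genes was 0.63, so most genes shifted the same way. Neutrophil markers had median levels of 4.29 in unirradiated young and 5.68 in unirradiated old mice and monocyte markers of 4.79 and 6.19, and their part in these differences was not tested. All 7 genes had groups without overlap, as had 48.6% of all genes, 37.4% with old mice higher. Gclm (0.41, adjusted p = 0.113) and Nqo1 (-0.25, adjusted p = 0.531) were not called.

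The largest differences by age were those of Gsr and Srxn1. Gsr lay between 6.94 and 8.30 (median 7.68) in young mice and between 8.35 and 9.98 (median 9.06) in old mice. The lowest old mouse was just above the highest young mouse, and the difference was 1.35 (SE 0.28, adjusted p = 0.000646). The second probe of Gsr gave 1.51 (adjusted p = 0.000387). Srxn1, with 5.83 to 7.05 in young and 7.24 to 8.17 in old mice, was 1.18 higher (SE 0.24, adjusted p = 0.00059). Nfe2l2 was 1.17 higher (SE 0.18, adjusted p = 9.56e-05), with 4.18 to 5.11 in young and 5.76 to 6.37 in old mice, and its inhibitor Keap1 was 1.07 higher (SE 0.18, adjusted p = 0.000179), with 3.93 to 4.53 and 4.66 to 5.62. The factor and its inhibitor were higher together. Prdx1, with 5.55 to 6.13 in young and 6.50 to 6.96 in old mice, was 0.92 higher (SE 0.14, adjusted p = 8.12e-05), Gclc 0.91 (SE 0.17) and Txnrd1 0.76 (SE 0.16). The dimmer second probe of Prdx1 gave 0.86 and was not called (adjusted p = 0.00829). In 1 fit of all 24 arrays the calls of Nfe2l2, Keap1 and Srxn1 held and those of the other 4 genes did not. Against the median of all genes these differences came to between 0.13 for Txnrd1 and 0.72 for Gsr.

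Other scalings took most of that shift away, and with it most of the calls. The median of all genes was -0.00 with the 75th percentile, -0.04 with the median of probes well above background on all arrays, 0.14 after quantile normalization, 0.05 with the spike-in controls and 0.02 in the authors' table. Only Nfe2l2 was then still called, at 0.65 with the 75th percentile and 0.61 with the median of bright probes, and none of the genes was called with the other scalings named. The share of higher genes among all genes called was 75.9% in the main scaling, 28.9% with the 75th percentile, 24.8% with the median of bright probes, 44.8% after quantile normalization, 12.8% with spike-ins and 17.2% in the authors' table. The differences of Nfe2l2, Keap1, Gclc, Gsr, Srxn1 and Prdx1 stayed above 0 in all of these. Gclm changed sign, to between -0.38 and -0.11, and Txnrd1 was removed by the filters under all of them but the spike-ins. Which scaling is right was not tested, since no measure of RNA per volume of blood was used here.

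**Figure D4:**
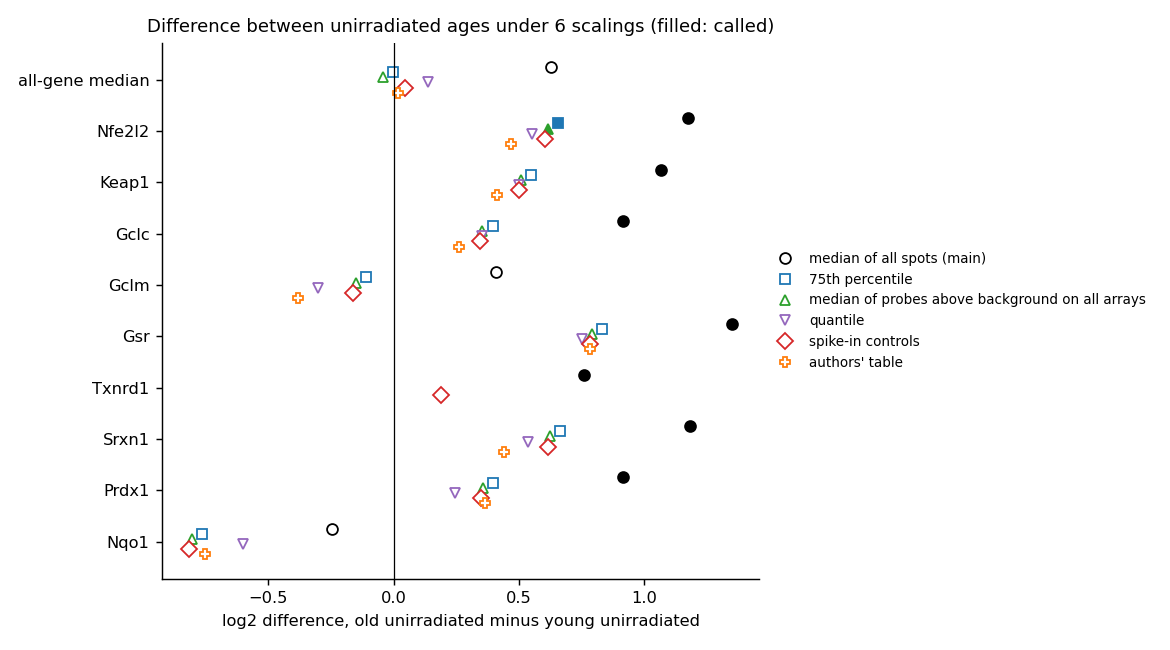
Log2 difference, unirradiated old minus unirradiated young mice (x axis), of the median of all genes and of the 9 genes (y axis) under 6 scalings of the arrays, drawn as different symbols; filled symbols passed both thresholds. With the median of all spots 7 genes were called and the median of all genes was 0.63, and with the other scalings at most 1 gene, Nfe2l2, was called.

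Irradiated old mice were also set against irradiated young mice. None of the 9 genes was called by limma (0%), where 1.99% of all genes were, and 3 had an unadjusted p below 0.05, a level that 21.4% of all genes reached. These were Nqo1 (1.62 higher in old mice, adjusted p = 0.147), Gclm (1.52, adjusted p = 0.176) and Srxn1 (0.95, adjusted p = 0.134). Without replicates 4 and 6, Nqo1 was 0.75 and Gclm 0.59 higher in old mice, and neither was called. Srxn1, with 7.28 to 9.34 in young and 9.26 to 9.95 in old mice, overlapped by a narrow margin. Without replicates 4 and 6, Nfe2l2 (1.35 higher, adjusted p = 0.00402) and Gsr (1.56 higher, adjusted p = 0.00641) were called in this comparison. Of all genes 20.2% were then called higher and 8.16% lower. In 1 fit of all 24 arrays Nqo1 (adjusted p = 0.0324), Gclm (adjusted p = 0.032) and Srxn1 (adjusted p = 0.0282) were called. That fit called 11.7% of all genes higher and 2.72% lower.

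Whether the response to radiation differed between the ages was tested as an interaction over 24 arrays. No gene of the 9 was called, and 0% of all genes were. At an unadjusted p below 0.05 there were 4 of the 9 genes, where 23.6% of all genes reached that level. Keap1 had an interaction of -1.39 (adjusted p = 0.134), Txnrd1 of -1.02 (adjusted p = 0.141), Nqo1 of 1.87 (adjusted p = 0.153) and Gclc of -1.05 (adjusted p = 0.168). A negative value means that the signed difference after radiation was lower in old than in young mice, which can be a smaller rise or a larger fall. Keap1 had differences of -0.04 in young and -1.42 in old mice, and Txnrd1 of 0.51 and -0.51. For Srxn1 the interaction was -0.24 (SE 0.41, adjusted p = 0.718). Without the arrays high in hepatocyte markers 3 genes were called, Keap1 (-1.93), Nqo1 (2.43) and Txnrd1 (-1.37). The irradiated old mice were then replicates 1, 4 and 6. In that setting 8.15% of all genes were called with a positive and 10% with a negative interaction. Without replicates 4 and 6 none was called, and the values were nearer to 0: Keap1 -0.74, Nqo1 0.99, Txnrd1 -0.52 and Gclc -0.46.

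The wider redox program was described with 7 lists of 73 genes in all, of which 66 were tested. In young mice 26 of the 66 rose after radiation (39.4%) and 11 fell (16.7%), where 14.3% of all genes rose and 21.1% fell. The median difference was 0.90 against -0.20 for all genes. Without the arrays high in hepatocyte markers 22 rose and 11 fell, where 14.4% and 20.6% of all genes did, and the median was 0.34, and the median of the glutathione list went from 1.45 to -0.00. Glutathione S-transferases, of which this list holds several, are abundant in hepatocytes. In old mice 9 rose (13.6%) and 6 fell (9.09%), with 7.49% and 17.4% of all genes. Without irradiated old replicates 4 and 6 the counts were 19 and 13, where 11.7% and 22.7% of all genes were called.

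Among regulators and partners of NRF2, 4 of 12 rose (33.3%) and 2 fell (16.7%) in young mice, where 14.3% of all genes rose and 21.1% fell. Nfe2, the erythroid and megakaryocyte relative of NRF2, lay between 6.24 and 7.15 without and between 7.02 and 8.85 with radiation and rose by 1.52 (SE 0.28), and Mafg, a small MAF partner, by 0.88 (SE 0.14). In old mice both rose too, Nfe2 by 1.45 and Mafg by 0.97. Gsk3b, a kinase that marks NRF2 for degradation, rose by 1.81 in young mice. Bach2, a repressor of such elements that is abundant in B cells, fell by 2.92 in the young and 3.70 in the old. Markers of platelets, whose precursors express Nfe2, had median levels of 8.39 without and 10.2 with radiation in young mice and of 9.44 and 11.3 in the old, and those of B cells are given above. The part of these cells in the differences of Nfe2 and Bach2 was not tested. Btrc, the adaptor of a second ligase for NRF2, fell by 1.82 in the young and 1.44 in the old.

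**Figure D5:**
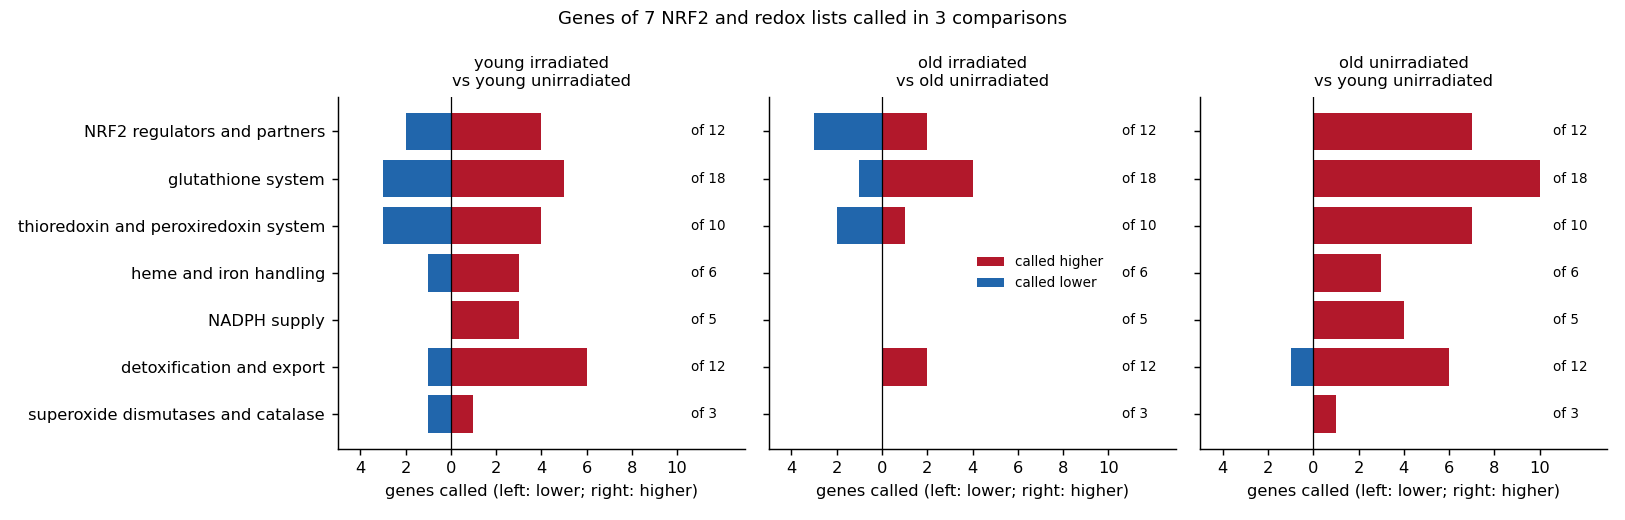
Number of genes called higher (right of 0) and lower (left of 0) on the x axis in each of 7 NRF2 and redox lists (y axis), in 3 comparisons, 1 per panel; the number tested stands at the right of each bar. Summed over the lists, 26 genes rose and 11 fell after radiation in young mice, 9 and 6 in old mice, and 38 were higher and 1 lower in unirradiated old against young mice.

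In the glutathione list 5 of 18 rose (27.8%) and 3 fell (16.7%) in young mice, where 14.3% of all genes rose and 21.1% fell. Gpx4, which reduces lipid peroxides, lay between 8.51 and 9.08 without and between 9.48 and 10.9 with radiation. All irradiated mice were above, and it rose by 1.55 (SE 0.21, adjusted p = 0.000116). In old mice Gpx4 rose by 1.52. Gpx1, a glutathione peroxidase found in red cells among others, fell by 1.58 in young mice. Erythroid markers had median levels there of 7.31 without and 6.44 with radiation, and their part in the Gpx1 difference was not tested. Gsta2, a glutathione S-transferase, rose by 1.64 in the young and 1.13 in the old, and Gss, glutathione synthetase, by 0.98 in young mice. Hepatocyte markers had median levels of 2.17 without and 5.33 with radiation in young mice and of -0.66 and 5.85 in old mice. The part of hepatocyte RNA in the differences of this list was not tested. Ggt1, which breaks down extracellular glutathione, was not well above background on any array after radiation in young mice, which puts it at least 1.96-fold lower there (adjusted p = 0.00135). Gsta3, called in old mice, followed the hepatocyte arrays, with -1.31 on the lowest and 8.76 on the highest irradiated old mouse.

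Of 10 genes tested in the thioredoxin and peroxiredoxin list, 4 rose (40%) and 3 fell (30%) in young mice. Of all genes 14.3% rose and 21.1% fell. Prdx6, a peroxiredoxin that uses glutathione, lay between 8.23 and 8.94 without and between 9.90 and 11.0 with radiation, and rose by 1.89 (SE 0.19, adjusted p = 1.49e-05). In old mice Prdx6 rose by 1.38. Txn1, thioredoxin itself, rose by 1.49 and Prdx5, found in mitochondria, by 1.33 in young mice. Prdx2, abundant in red cells, fell by 1.21 and the mitochondrial reductase Txnrd2 by 0.81. Sesn1, a stress gene of the sestrin family, fell by 0.90 in the young and 1.96 in the old. The list thus moved in both directions at both ages.

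Of 5 tested genes for NADPH supply, 3 rose in young mice (60%) and 0 fell, where 14.3% of all genes rose and 21.1% fell. G6pdx, the first enzyme of the pentose phosphate pathway, lay between 5.72 and 6.16 without and between 6.62 and 7.21 with radiation and rose by 1.06 (SE 0.14), and Pgd, the third enzyme of that pathway, rose by 1.08 (SE 0.15). Idh1, which makes NADPH from isocitrate, rose by 1.93 (SE 0.53). In old mice none of the 5 was called with all 6 irradiated mice kept. Of 12 genes tested for detoxification and export, 6 rose (50%) and 1 fell (8.33%) in young mice. Ugt1a6b was at 1.95, Nqo2 at 1.77, Osgin1 at 1.43 and Cbr1 at -0.53. Hepatocyte markers had median levels of 2.17 without and 5.33 with radiation in young mice. The part of hepatocyte RNA in the differences of Idh1, Ugt1a6b and the other genes of these lists was not tested. In the heme and iron list, 3 of 6 rose (50%) and 1 fell (16.7%) in young mice. Slc40a1, the iron exporter, lay between 2.51 and 3.77 without and between 4.65 and 5.31 with radiation and rose by 1.99 (SE 0.21). Hmox1, which degrades heme, rose by 1.12. Markers of tissue macrophages, a list that holds Slc40a1, had median levels of 1.38 and 4.80 in the same groups, and their part in these differences was not tested.

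Between unirradiated ages 38 of the 66 were higher in old mice (57.6%) and 1 lower (1.52%), beside 48.5% and 15.4% of all genes. These counts changed with the scaling as the calls above did. With the 75th percentile 13 of 61 tested were higher and 2 lower, beside 10.8% and 26.5% of all genes. After quantile normalization 20 of 61 were higher and 3 lower, beside 17.1% and 21.1%. With spike-ins 9 of 67 were higher and 2 lower, beside 3.29% and 22.3%, and with the authors' values 5 of 63 were higher and 5 lower, beside 4.45% and 21.5%. Hmox1 (1.52), Slc40a1 (1.90), G6pdx (1.32), Pgd (1.36) and Prdx5 (1.27) were among the genes higher in old mice in the main scaling. Between irradiated ages 1 gene of the 66 was called (1.52%), where 1.99% of all genes were. It was Sqstm1, an adaptor that binds KEAP1, at 1.51 higher in old mice (SE 0.36, limma adjusted p = 0.0479).

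Finally, the genes whose pattern was most like that of Nfe2l2 were found by Pearson correlation over 24 arrays and 17775 other genes. With values centred on their group means these were Arrdc3 and Mtmr6 at 0.98, and Ssh2, Csgalnact2 and Samsn1 at 0.97. Without irradiated old replicates 4 and 6 these 5 correlations were 0.94 to 0.95 over 22 arrays. Without centring the most alike were Stat5b at 0.98 and Svil, Igsf6, Hbp1 and Ndel1 at 0.97. The arrays share their scaling and their cell composition, so these correlations are descriptions.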

How the data were processed

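Whole-blood RNA of 24 mice was hybridised to one-colour Agilent mouse arrays, 1 mouse per array. The intensities that the authors deposited were made with Agilent Feature Extraction 12.0.2 (named in the submitters' processing notes), which subtracts background and does not scale arrays to each other. The authors' deposited table holds filtered and normalized log2 values for 17166 probes, and served as an alternative. Its centring is not stated, its column medians were 5.77 to 6.73, and each column correlated with its scanner values at 0.995 or more.

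Non-uniform spots were discarded, values were put on the log2 scale, the median over 43020 of 44397 spots (those not controls) was subtracted and repeat spots were averaged. Of 39429 probes, 24130 remained after removal of those that failed (non-uniform, or without a positive and significant signal) in 25% of arrays or more. Genes needed a 1.5-fold difference from their median on at least 5 arrays (20%), and 17805 were tested on their brightest probe with limma 3.58.1 in R 4.3.3 (two-sided, 12 arrays a comparison, 24 for the interaction). Thresholds were p of 0.005 and an adjusted p of 0.05. For a group without any array well above background the fold is given as a bound, from the dimmest signal well above background per array. The median signal per array was 8.66 to 44.8, which with 6 arrays a group limits the precision for dim genes. The code was tested on simulated data.

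Genes were named as follows: all 10 NRF2 genes, up to 3 called genes per list, comparison and direction with the highest mean signal, the 5 genes most like Nfe2l2, and Cdkn1a. Members and lists were chosen with earlier results of these data known. No array differed from another of its group by less than its repeat spots. Replicate numbers were checked for pairing: same-numbered mice correlated at -0.29 to 0.29 in young mice, -0.20 to 0.34 in old mice, -0.08 to 0.16 between unirradiated ages and -0.60 to 0.58 between irradiated ages, so they were not treated as pairs. Alternatives were other scalings, background correction, filters, probes, variance models, slide or replicate as a block, and leaving out arrays. Sequences are from the scanner files (probes) and RefSeq (promoters).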

Additional observations from a re-analysis of the deposited data

Results flagged for a closer look

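With 6 mice a group, each probe of the 10 genes was examined in each group for a mouse whose distance from the next, as a share of the group's range, exceeded Dixon's 95% critical value for 6 samples. Of 48 combinations of probe and group, 4 held such a mouse, and chance gives about 1 in 20. In irradiated young mice replicate 4 was the lowest for Nfe2l2, at 4.83 with the next mouse at 5.34, and for Srxn1, at 7.28 with the next at 8.71. The same mouse had the highest hepatocyte marker level of all arrays, 10.2, and the part of hepatocyte RNA in its values was not tested. For the second probe of Gsr, unirradiated old replicate 4 was the highest, at 8.52 with the next at 7.47. For the second probe of Prdx1, irradiated old replicate 1 was the lowest, at 0.893 with the next at 2.23.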

How the results depend on the processing

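Gclc and Srxn1 in young mice stayed called under every alternative run, and Srxn1 in old mice under every one but normexp. In young mice the count of called genes, 4, was 2 with normexp, the authors' values, spike-in scaling, 1 fit of 24 arrays and the slide as a fixed block. It was 3 with 75th percentile and quantile scaling, where Txnrd1 was not among the 8 genes tested. Without the filter on dim probes, and without the hepatocyte-high arrays, it was 3 too. With bright-probe scaling it was 4 of 8, with Nfe2l2 called and Txnrd1 not tested. It was 6 with the slide as a random block, where Nfe2l2 higher and Gclm lower were added. Of all genes 19.6% were then called higher and 30.2% lower. Without 1 mouse each the count was 3 to 5. With normexp 94% of all genes called in young mice were higher, against 40.4%. In old mice the count, 2, was 1 with the 75th percentile, quantile, bright-probe and spike-in scaling and the authors' values. It was also 1 with the slide as a fixed block and with replicates 4 and 6 averaged, and 0 with normexp. The count was 3 without replicates 4 and 6, and 3 without the hepatocyte-high arrays. In the latter setting 15.8% of all genes were called higher and 24.4% lower. Without 1 mouse each it was 1 to 2. Between unirradiated ages the count, 7, was 1 with the 75th percentile and bright-probe scaling, 0 with quantile and spike-in scaling, normexp and the authors' values, and 3 in 1 fit. Between irradiated ages it was 3 in 1 fit and 2 without replicates 4 and 6, and 3 for the interaction without the hepatocyte-high arrays. The cause of these changes was not tested.

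With the replicate block the counts were 3 in young mice (Txnrd1 lost its call), 2 in old mice, 7 between unirradiated ages, 0 between irradiated ages and 0 for the interaction.

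Differences that changed sign were these. Young: Keap1 0.0065 (bright-probe scaling), 0.38 (normexp), 0.055 (slide as a random block) and -0.19 to 0.066 without 1 mouse each; Prdx1 -0.25 (hepatocyte-high arrays out). Old: Prdx1 -0.078 (quantile), -0.21 (spike-in), -0.68 (slide fixed), -0.34 (replicates 4 and 6 out), -0.84 (both sets out), -0.13 (averaged) and -0.16 to 0.17 without 1 mouse each. Nfe2l2 was -0.20 (spike-in), -0.0098 (slide random), -0.53 (hepatocyte-high out) and -0.26 to 0.32, Gclm -0.14 (slide fixed), -0.58 (4 and 6 out), -0.022 (averaged) and -0.039 to 0.60. Txnrd1 was 0.10 (normexp), and with hepatocyte-high arrays out Gclc -0.19 and Gsr -0.093. Unirradiated ages: Gclm -0.11 (75th percentile), -0.30 (quantile), -0.15 (bright-probe), -0.015 (normexp), -0.38 (authors), -0.16 (spike-in). Irradiated ages: Prdx1 -0.15 (quantile), -0.036 (normexp), -0.16 (spike-in). With 4 and 6 out Keap1 was 0.33, Gclc 0.46 and Txnrd1 0.23, with both sets out 0.32, 0.60 and 0.27, with hepatocyte-high out Nfe2l2 -0.073 and Gsr -0.12, and Gclc 0.10 (averaged) and -0.29 to 0.13 without 1 mouse each. Interaction: Srxn1 0.056 (75th percentile and bright-probe), Nfe2l2 0.45 and Gsr 0.94 (slide fixed), 0.18 and 0.21 (4 and 6 out), 0.76 and 0.57 (both out), Prdx1 0.43 (hepatocyte-high out). Leaving out these sets of arrays was chosen after seeing the data, as were the spike-in scaling and the averaging.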
